A study of Mus musculus with 28 samples.

Results

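Clu, Ly6a, Anxa3, Yap1, Tead1, Bmi1, Hopx, Mex3a and Msi1 are 9 mouse genes known from reserve, revival and regenerative states of intestinal stem cells. They were chosen by gene symbol, are 9 of the 54354 genes in the deposited count table, and all 9 were among the 12495 genes that passed the filter on low counts. The 28 RNA sequencing libraries came from small intestine of Lgr5-GFP mice, in which green fluorescent protein reports expression of the stem cell receptor gene Lgr5. They form 4 groups of 7: Lgr5-high cells on the cystine diet, Lgr5-high cells on the control diet, Lgr5-low cells on the cystine diet and Lgr5-low cells on the control diet. Cystine is a pair of cysteine molecules joined by a disulfide bond, and the study's title links dietary cysteine to intestinal stemness through interleukin 22 made by CD8+ T cells. All 4 groups share the reporter genotype. Age and sex are not in the labels. Since no label ties the 7 libraries of a group to different animals, each p-value reflects the spread among libraries, which may be technical. Over the 84 pairs of libraries within groups, counts differed by a chi-square of 14 to 256 per gene, far beyond sampling noise. In each group 2 or 3 of the 7 libraries had Xist, a transcript of the inactive X chromosome, under 50 CPM. Per the labels' extraction protocol the RNA was taken from organoids, but the series text describes cells isolated from the intestine, and which of these holds is not given in the sources used here.

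The intestinal epithelium is renewed by Lgr5-expressing stem cells at the crypt base. When these cells are lost, other cells of the crypt can take their place: Bmi1 and Hopx were described as genes of reserve cells just above the crypt base, and Clu marks revival cells that appear after damage. Regenerating crypts also take on a fetal-like state with Ly6a and Anxa3, which depends on the coactivator Yap1 and its DNA-binding partners of the TEAD family.

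The libraries held between 2.75 and 21.5 M counts (M, mega), and the group medians were 5.32 M in Lgr5-high cystine, 15.4 M in Lgr5-high control, 14.8 M in Lgr5-low cystine and 7.3 M in Lgr5-low control libraries. Levels are given as CPM, counts per M counts after TMM scaling of library sizes. Lgr5 itself measured 25.8 ± 7.89 CPM in Lgr5-high cystine and 35 ± 9.06 CPM in Lgr5-high control libraries, against 6.76 ± 2.89 and 4.19 ± 3.61 CPM in the Lgr5-low cystine and Lgr5-low control groups (SD, n = 7 each). For Lgr5 the populations did not overlap on either diet, in the direction of the sort labels. Olfm4, a secreted protein of the crypt base, averaged 4880 and 4770 CPM in Lgr5-high cystine and control libraries, against 1320 and 1210 CPM in the Lgr5-low groups. Markers of other cells were also measured. The summed level of 11 macrophage markers was 24.2 to 665 CPM (median 397) in Lgr5-high cystine and 27.6 to 59.9 CPM (median 45.7) in Lgr5-high control libraries, and 33.5 to 146 and 11.9 to 80.9 CPM in the Lgr5-low cystine and Lgr5-low control libraries. The 6 hepatocyte markers, led by Alb and Ttr, summed to 172 to 799 CPM over the 4 groups, and none of them was at 0 in a library.

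All 9 genes were expressed at low to middling levels. Per kb of merged exon sequence, the mean over the 28 libraries was highest for Hopx (6.51 CPM per kb), followed by Clu (2.35), Ly6a (1.96), Anxa3 (1.36), Bmi1 (1.19), Yap1 (1.05), Tead1 (0.542), Msi1 (0.514) and Mex3a (0.291). Lgr5 measured 1.75 CPM per kb on the same scale. No gene was too low to test by the filter, but depth differed widely behind the values. Mex3a had fewer than 10 counts in 11 of 28 libraries and Ly6a and Msi1 in 10 each, against 6 for Anxa3, 5 for Bmi1, 3 for Tead1, 1 each for Yap1 and Hopx and 0 for Clu. The biological coefficient of variation, the spread between libraries beyond counting noise, was 1.03 for Ly6a, 0.996 for Mex3a and 0.961 for Msi1, and between 0.474 (Yap1) and 0.726 (Anxa3) for the other genes. For Ly6a, Mex3a and Msi1 the standard error of a log2 fold change was between 0.80 and 0.90 in every comparison of 2 groups. For the other genes it was between 0.38 (Yap1) and 0.60 (Anxa3), and Hopx at 1.36 ± 0.40 on control diet missed the threshold. In comparisons of 2 groups, changes of about 1 log2 unit could thus go uncalled in any of the 9 genes. For each of the 9 genes, groups next to each other in the order of mean levels overlapped and differed by less than the larger SD.

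**Figure D1:**
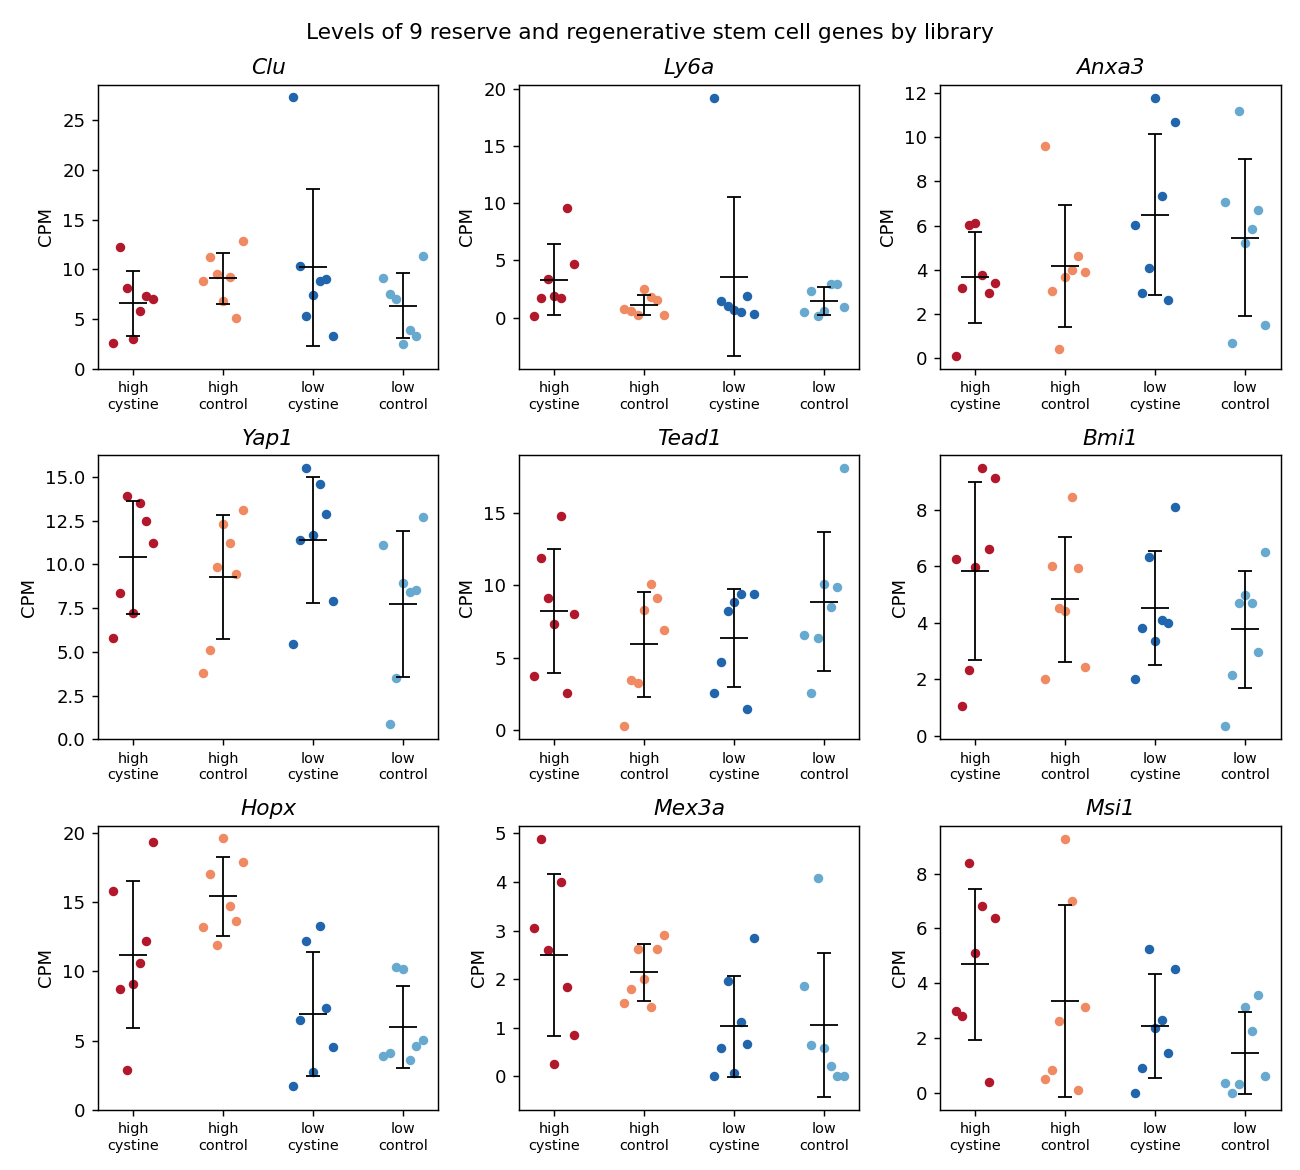
Level of each gene in CPM (y axis, linear, starting at or below 0) in every library (points) of the 4 groups (x axis), with the group mean and SD as black bars. Hopx in the control-diet groups is the pair without overlap: the Lgr5-high libraries sit between 11.9 and 19.6 CPM and the Lgr5-low libraries between 3.59 and 10.3 CPM.

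The diet comparison asked whether cystine changed these genes within each population. No member passed the threshold of an adjusted p of 0.05 in either population with edgeR's quasi-likelihood test. In Lgr5-high cells 0 of 9 genes were called, against 21 of all 12495 genes tested (0.168%, 535 at an unadjusted p under 0.05), and the adjusted p was 1 for each of the 9. The members' median log2 fold change was 0.22, beside -0.02 for all genes, with 6 of 9 positive. In Lgr5-low cells 0 of 9 members and 0 of all genes (0%) were called, 371 genes had an unadjusted p under 0.05, and DESeq2 and limma-voom called 4 and 1 genes, none of them a member. There the median was 0.28 for the members and 0.00 for all genes, with 8 of 9 above or at 0. The difference between the diet effects of the populations was tested as an interaction, in which again 0 of 9 members and 0 of all genes (0%) passed with edgeR, 415 genes had an unadjusted p under 0.05, and DESeq2 and limma-voom called 0 and 6 genes.

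Hopx, which encodes a homeodomain protein that does not bind DNA itself, was the only one of the 9 genes with a 95% interval that left out 0 in a comparison of 2 groups, between the sorted populations on control diet. It lies on chromosome 5 (77086988 to 77115121, minus strand, GRCm38). On the control diet its lowest, median and highest levels were 11.9, 14.7 and 19.6 CPM in Lgr5-high cells, against 3.59, 4.59 and 10.3 CPM in Lgr5-low cells. All 7 Lgr5-high libraries were above all 7 Lgr5-low libraries, a separation that 120 of the 12495 genes showed (0.960%). The log2 fold change was 1.36 ± 0.40 (SE, 95% interval 0.56 to 2.16), and the adjusted p of 0.0636 missed the threshold. Here 0 of 9 members were called with edgeR, 1 of them (Hopx) had an unadjusted p under 0.05, as did 1607 of all genes (12.9%), and DESeq2 and limma-voom called 1, again Hopx (adjusted p = 0.0199 and 0.0405). Over all genes 225 were called (1.80%), and the adjusted p for Hopx ranged from 0.0199 to 0.626 over 11 other settings.

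On the cystine diet Hopx had 2.88, 10.6 and 19.3 CPM as lowest, median and highest values in Lgr5-high cells, against 1.72, 6.45 and 13.3 CPM in Lgr5-low cells. The groups overlapped, with 6 of 7 Lgr5-high libraries above the Lgr5-low median. The log2 fold change was 0.69 ± 0.39 (95% interval -0.10 to 1.48, adjusted p = 0.416), in a comparison that called 0 of 9 members and 330 of all genes (2.64%). Averaged over both diets, a comparison added after the data had been seen, Hopx was higher in Lgr5-high cells by 1.03 ± 0.28 log2 units (95% interval 0.46 to 1.59, adjusted p = 0.0146). It was the 1 member of 9 called there, beside 1100 of all genes (8.80%). Leaving out any 1 library kept the log2 fold change between 0.93 and 1.14 and the adjusted p between 0.00558 and 0.0363. In bulk libraries, fewer cells that express a gene and less RNA per cell cannot be told apart.

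Between diets, Hopx in Lgr5-high cells averaged 11.2 ± 5.29 CPM on cystine and 15.4 ± 2.84 CPM on control diet (log2 fold change -0.45 ± 0.39, 95% interval -1.24 to 0.33). In Lgr5-low cells it averaged 6.89 ± 4.47 CPM on cystine and 5.95 ± 2.96 CPM on control diet (0.22 ± 0.39, 95% interval -0.57 to 1.01). The groups overlapped in both populations, and the difference between the diet effects was -0.67 ± 0.55 (adjusted p = 1). The gene most like Hopx over the 28 libraries was Nifk (Pearson r = 0.74 of log2 CPM), then Pik3c2a (0.73) and Sgf29 (0.72), against a 99th percentile of 0.59 over the candidate genes. Within groups, after subtracting group means, these values were 0.51, 0.60 and 0.54. An antisense gene, Hopxos, lies across part of Hopx, and whether the authors' counting used strand is not given in the sources used here.

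**Figure D2:**
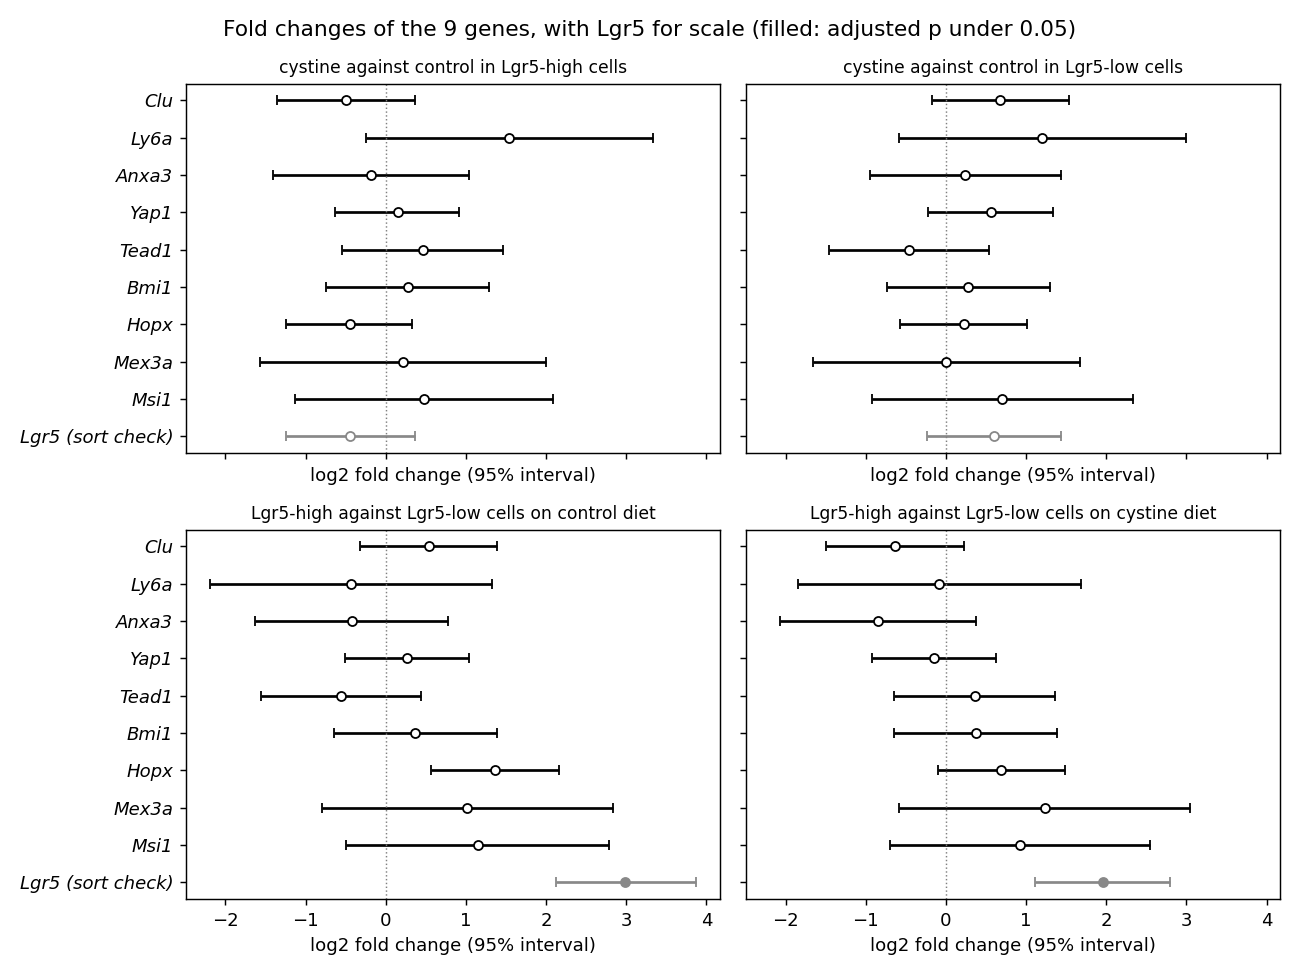
Log2 fold change with its 95% interval (x axis) for the 9 genes and for Lgr5 (y axis) in the 4 comparisons of 2 groups, where filled points have an adjusted p under 0.05. Every interval of the 9 genes spans 0 except Hopx on control diet (0.56 to 2.16), and the filled points are those of Lgr5 between populations.

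RefSeq (GRCm38.p6) gives 2 start sites for Hopx. Both 300-base promoter windows, from 250 bases before to 50 after the start, are shown since Hopx carried the clearest difference between populations. They were searched on both strands for the TEAD motif GGAATG and for TTCNNNGAA, the letters bound by STAT factors, which act downstream of interleukin 22. Neither window held either motif, so no letters are in capitals.
Hopx upstream start, chr5:77115074-77115373, minus strand: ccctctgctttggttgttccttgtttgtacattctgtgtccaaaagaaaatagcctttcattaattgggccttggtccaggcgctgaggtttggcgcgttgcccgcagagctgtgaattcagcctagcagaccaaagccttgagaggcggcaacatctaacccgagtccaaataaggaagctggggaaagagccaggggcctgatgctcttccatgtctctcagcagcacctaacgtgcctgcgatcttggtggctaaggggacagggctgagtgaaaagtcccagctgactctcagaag
Hopx downstream start, chr5:77095218-77095517, minus strand: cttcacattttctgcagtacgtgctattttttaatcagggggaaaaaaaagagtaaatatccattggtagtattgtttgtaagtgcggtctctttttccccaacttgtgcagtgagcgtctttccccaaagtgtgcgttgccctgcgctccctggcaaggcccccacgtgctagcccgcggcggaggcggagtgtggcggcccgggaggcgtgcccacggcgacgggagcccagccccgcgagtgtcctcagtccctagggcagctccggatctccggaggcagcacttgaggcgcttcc
The window of the downstream start was richer in G and C (59%, against 53% in the upstream one). The absence of these letters from the windows says nothing about binding of the factors elsewhere.

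Mex3a and Msi1 encode RNA-binding proteins. Mex3a marks a slowly dividing part of the Lgr5 population in mouse crypts, and Msi1 (Musashi 1) is expressed in crypt base and neighbouring cells. Mex3a had a lowest, median and highest level of 0.249, 2.61 and 4.89 CPM in Lgr5-high cystine and 1.43, 2.01 and 2.92 CPM in Lgr5-high control libraries. In Lgr5-low cells these values were 0, 0.666 and 2.84 CPM on cystine and 0, 0.58 and 4.09 CPM on control diet. On control diet all 7 Lgr5-high libraries were above the Lgr5-low median, yet the groups overlapped, with Lgr5-low control replicates 1 and 3 at 1.86 and 4.09 CPM. Mex3a had 0 counts in Lgr5-low cystine replicate 1 and in Lgr5-low control replicates 6 and 7, where 3 counts would correspond to 0.862, 0.234 and 0.889 CPM. Such limits cover counting error only. The log2 fold change of Lgr5-high over Lgr5-low cells was 1.23 ± 0.90 on cystine diet (95% interval -0.59 to 3.04, adjusted p = 0.579) and 1.02 ± 0.90 on control diet (-0.80 to 2.83, adjusted p = 0.711). With limma-voom and sample weights the averaged difference over both diets was 2.09 and passed (adjusted p = 0.0112), whereas edgeR gave 1.12 ± 0.63 (adjusted p = 0.303). Between diets Mex3a gave 0.22 ± 0.88 in Lgr5-high and 0.00 ± 0.82 in Lgr5-low cells, with 95% intervals of -1.57 to 2 and -1.66 to 1.67.

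Msi1 reached 0.368, 5.11 and 8.37 CPM (lowest, median, highest) in Lgr5-high cystine and 0.0994, 2.63 and 9.27 CPM in Lgr5-high control libraries. In Lgr5-low cells it reached 0, 2.34 and 5.26 CPM on cystine and 0, 0.592 and 3.58 CPM on control diet. The order of the medians put Lgr5-high cystine first and Lgr5-low control last, and all 4 groups overlapped. The log2 fold change of Lgr5-high over Lgr5-low cells was 0.92 ± 0.80 on cystine diet (adjusted p = 0.66) and 1.15 ± 0.81 on control diet (adjusted p = 0.612). Cystine over control gave 0.48 ± 0.80 in Lgr5-high cells (95% interval -1.13 to 2.09) and 0.70 ± 0.80 in Lgr5-low cells (-0.92 to 2.33). Within groups Msi1 moved with library depth: the deviations of its log2 CPM from the group means correlated with those of the library total at r = 0.55 over 28 libraries. Whether depth has a part in its differences was not tested, and without the libraries under 5 M counts its log2 fold change of Lgr5-high over Lgr5-low cells was 0.89 on cystine and 0.95 on control diet.

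Of the other genes related to these RNA-binding proteins, 4 of 5 listed were tested and 0 passed in any of the 5 comparisons, with median log2 fold changes between 0.07 and 0.28. Their lead was Msi2, a close relative of Msi1, at 8.14 ± 3.8 CPM in Lgr5-low cystine and 5.79 ± 5.85 CPM in Lgr5-low control libraries (log2 fold change 0.51, adjusted p = 1). Mex3c gave 0.26 (adjusted p = 0.853) and Mex3d -0.95 (adjusted p = 0.765) for Lgr5-high over Lgr5-low cells on control diet. The genes most like Mex3a were Dancr (r = 0.79), Tmem35b (0.72) and Nipsnap1 (0.72), and those most like Msi1 were Prrc2b (0.77), Zfp369 (0.76) and Lrrcc1 (0.76).

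Bmi1, a subunit of Polycomb repressive complex 1 that silences genes through chromatin, lies on chromosome 2 (18677018 to 18686629, plus strand). It measured 1.05, 6.26 and 9.47 CPM (lowest, median, highest) in Lgr5-high cystine and 2.03, 4.51 and 8.44 CPM in Lgr5-high control libraries. The values were 2.01, 3.99 and 8.11 CPM in Lgr5-low cystine and 0.337, 4.7 and 6.52 CPM in Lgr5-low control libraries. All 4 groups overlapped. Its fold changes were close to each other, at 0.28 ± 0.50 log2 units for cystine over control in both populations and 0.37 ± 0.50 for Lgr5-high over Lgr5-low cells on both diets. The 95% interval of the diet effect in Lgr5-high cells was -0.74 to 1.29. Bmi1 and Hopx, both named as reserve genes, therefore stood apart in size between populations on control diet (0.37 and 1.36), a difference between genes that was not tested. Of the 31-base words in Bmi1 transcripts, 27.5% also occur in the gene Gm5946, which was listed at 0 counts in every library, so the division of reads between them is uncertain. The genes most like Bmi1 were E2f3 (r = 0.78), AU020206 (0.77) and Gmcl1 (0.75).

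Among its Polycomb partners, 14 of 16 listed genes were tested and 0 passed in any comparison, with medians between -0.17 and 0.12 beside -0.04 to 0.00 for all genes. The lowest p-values were those of Pcgf5, an alternative to Bmi1 in the complex (interaction -0.91, adjusted p = 1), Pcgf6 (0.71 for cystine over control in Lgr5-high cells, adjusted p = 1) and Pcgf1 (0.56 for Lgr5-high over Lgr5-low cells on control diet, adjusted p = 0.673). The list of other reserve and isthmus genes held 8 tested members of 8, with medians between -0.25 and -0.09. Between populations 1 of 8 was called on each diet, where 2.64% of all genes were called on cystine and 1.80% on control diet. On each diet 4 of 8 had a positive log2 fold change. Krt19, a keratin of simple epithelia that marks cells above the crypt base, was lower in Lgr5-high cells on both diets. It measured 49.3 ± 14.9 against 110 ± 15.6 CPM on cystine (log2 fold change -1.16 ± 0.20, adjusted p = 0.000935) and 58.9 ± 13 against 125 ± 43.6 CPM on control diet (-1.09 ± 0.20, adjusted p = 0.00194). Sox9, a transcription factor of crypt progenitors, gave 0.67 on cystine diet (adjusted p = 0.189). The cell cycle inhibitor Cdkn1c gave -3.16 ± 1.17 on cystine diet, at low levels (0.241 ± 0.551 against 2.29 ± 1.97 CPM, adjusted p = 0.15). On control diet Cdkn1c gave -0.6 (adjusted p = 0.877). No gene of the list passed between diets.

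Yap1 and Tead1 form the transcription factor pair of the Hippo pathway: Hippo kinases hold Yap1 in the cytoplasm, and in the nucleus it acts through TEAD proteins. Yap1 measured 5.79, 11.2 and 13.9 CPM (lowest, median, highest) in Lgr5-high cystine and 3.8, 9.84 and 13.1 CPM in Lgr5-high control libraries. In Lgr5-low cells it measured 5.46, 11.7 and 15.5 CPM on cystine and 0.858, 8.56 and 12.7 CPM on control diet. The cystine groups had the higher medians in both populations, but all 4 groups overlapped. Cystine over control gave 0.15 ± 0.38 log2 units in Lgr5-high cells (95% interval -0.63 to 0.92) and 0.56 ± 0.38 in Lgr5-low cells (-0.22 to 1.34, adjusted p = 1). Yap1 had the smallest spread of the 9 genes, and the upper bounds of these intervals were 0.92 and 1.34 log2 units. The intervals reflect the spread among libraries and are not adjusted for the number of genes, so larger changes are not excluded.

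Tead1 measured 2.58, 8.06 and 14.8 CPM (lowest, median, highest) in Lgr5-high cystine and 0.253, 6.95 and 10.1 CPM in Lgr5-high control libraries. The values were 1.43, 8.23 and 9.42 CPM in Lgr5-low cystine and 2.57, 8.53 and 18.1 CPM in Lgr5-low control libraries. Its diet effect was 0.46 ± 0.50 in Lgr5-high and -0.46 ± 0.49 in Lgr5-low cells, and the interaction of 0.92 ± 0.70 (95% interval -0.50 to 2.33, adjusted p = 1) did not pass. Over the 28 libraries the within-group deviations of Yap1 and Tead1 correlated at r = 0.58, and those of Msi1 with Tead1 and with Yap1 at 0.55 and 0.53, given as a description with no test. The 3 genes share library depth, with which they correlated at 0.25 (Yap1), 0.42 (Tead1) and 0.55 (Msi1). Genes with a pattern like that of Yap1 included Egln1 (r = 0.81) and Itga2 (0.81), and those most like Tead1 were Gtf3c5 (0.86), Lemd2 (0.78) and Cdk8 (0.76).

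The set of RefSeq promoter windows used here held entries for 4 of the 9 genes, Yap1, Bmi1, Hopx and Mex3a. The TEAD motif GGAATG occurred in the windows of Yap1 and Bmi1, at 141 and 228 bases before the start, and is in capitals below. It was found in 14.7% of 32851 mouse promoter windows. The motif TTCNNNGAA was in none of the windows of the 4 genes, and in 8.3% of all windows.
Yap1, chr9:8004547-8004846, minus strand: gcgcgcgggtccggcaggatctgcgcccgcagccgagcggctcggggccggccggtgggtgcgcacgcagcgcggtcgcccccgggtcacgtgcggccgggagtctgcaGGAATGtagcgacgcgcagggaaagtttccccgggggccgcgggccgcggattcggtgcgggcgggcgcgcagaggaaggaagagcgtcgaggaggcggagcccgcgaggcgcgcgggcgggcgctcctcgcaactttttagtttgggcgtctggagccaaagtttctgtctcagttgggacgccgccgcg
Bmi1, chr2:18676768-18677067, plus strand: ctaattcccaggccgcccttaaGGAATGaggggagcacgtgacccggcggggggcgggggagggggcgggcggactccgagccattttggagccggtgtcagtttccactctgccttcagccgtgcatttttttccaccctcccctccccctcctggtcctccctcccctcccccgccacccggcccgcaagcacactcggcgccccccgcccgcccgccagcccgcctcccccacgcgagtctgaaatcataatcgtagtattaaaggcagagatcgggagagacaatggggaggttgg
A match of these letters is a description of the sequence and not a shown binding site.

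No gene of the wider Hippo pathway passed the test. Of 16 listed kinases and inhibitors of Yap1, 14 were tested and 0 passed in any of the 5 comparisons, with medians between -0.25 and 0.13. The lowest p-values belonged to the kinase gene Stk4 (11.1 ± 2.38 CPM in Lgr5-high against 16.9 ± 3.59 CPM in Lgr5-low cells on cystine, log2 fold change -0.59, adjusted p = 0.305), the kinase cofactor Mob1b (-0.59 on control diet, adjusted p = 0.374) and the kinase Lats1 (-0.64 on control diet, adjusted p = 0.435). Of the relatives of Yap1 and Tead1, 3 of 4 were tested and 0 passed, with medians between -1.01 and 1.25 from genes of few counts. Tead2 gave 1.41 (3.85 ± 2.15 against 1.38 ± 1.64 CPM, adjusted p = 0.424) and Tead3 1.25 (adjusted p = 0.68) for Lgr5-high over Lgr5-low cells on control diet. Wwtr1, which encodes the Yap1 relative TAZ, gave 1.15 for cystine over control in Lgr5-low cells (adjusted p = 1).

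Target genes of Yap1 were mostly too low to test: 10 of 22 passed the filter, and 0 of these passed a test. Their medians lay between -0.27 and 0.42 over the 5 comparisons. The classical targets Ccn2 and Ankrd1 averaged 0.0272 and 0 CPM over the 28 libraries and were named after their values were seen. Ccn1, a matrix protein gene and another classical target, measured 1.9 ± 1.34 CPM in Lgr5-high against 0.209 ± 0.306 CPM in Lgr5-low cells on cystine (log2 fold change 3.39 ± 1.26, adjusted p = 0.151). The receptor kinase gene Axl measured 3.19 ± 2.35 against 0.528 ± 0.556 CPM in the same comparison (2.58 ± 0.99, adjusted p = 0.165). In 6 of the 7 Lgr5-high cystine libraries the macrophage marker sum was above that of every other library (203 to 665 CPM, against 24.2 CPM in replicate 1), and macrophages are known to express Axl; the part of these cells in the values was not tested. Dock5 gave -1.32 on control diet (adjusted p = 0.218).

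Clu encodes clusterin, a secreted chaperone. It lies on chromosome 14 (65968483 to 65981547, plus strand) and shares no 31-base word with another gene. It measured 2.58, 7 and 12.2 CPM (lowest, median, highest) in Lgr5-high cystine and 5.12, 9.22 and 12.9 CPM in Lgr5-high control libraries. In Lgr5-low cells it measured 3.26, 8.85 and 27.3 CPM on cystine and 2.5, 6.97 and 11.3 CPM on control diet. The medians leaned in opposite directions, lower on cystine in Lgr5-high and higher in Lgr5-low cells, and the groups overlapped in both. Cystine over control gave -0.49 ± 0.43 log2 units in Lgr5-high cells (95% interval -1.35 to 0.37) and 0.68 ± 0.42 in Lgr5-low cells (-0.18 to 1.54). The interaction was -1.17 ± 0.60 (95% interval -2.39 to 0.05, adjusted p = 1), the interaction nearest to the threshold among the 9 genes. The value of 27.3 CPM came from Lgr5-low cystine replicate 1, a library of 4.11 M counts. Without it the interaction was -0.75 and the diet effect in Lgr5-low cells 0.23. Leaving out each of the 28 libraries in turn gave an interaction between -1.42 and -0.75. It was -1.51 without the libraries under 5 M counts (adjusted p = 0.973) and -1.59 with limma-voom (adjusted p = 0.655).

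Clu moved with the hepatocyte markers from library to library. Over the 28 libraries its log2 CPM correlated with the summed level of the 6 hepatocyte markers at Pearson r = 0.79 and Spearman rho = 0.79, each with a permutation p of 1.00e-05, the smallest that 100000 permutations can give (adjusted p = 0.00117 each over 117 relations of 9 genes with 13 measures). Of these relations, 13 had an adjusted p under 0.05 for r. The permutations exchanged all 28 libraries without regard to group or replicate number. The p-values of all 117 relations therefore treat the libraries as independent, which the labels do not establish. For Clu and hepatocyte markers r was 0.78 when the 2 libraries with the most extreme hepatocyte sums were left out. Within groups of 7, r was 0.56 in Lgr5-high cystine, 0.82 in Lgr5-high control, 0.77 in Lgr5-low cystine and 0.97 in Lgr5-low control libraries. Leaving out the 2 farthest libraries of a group gave -0.2, 0.41, 0.81 and 0.94 in the same order, so that within the Lgr5-high groups the relation rests on those libraries. With the library total in place of the hepatocyte sum, r of Clu within groups was -0.87, -0.31, -0.7 and -0.89 in that order. The part of depth in the relation of Clu with hepatocyte markers was not tested. The 3 genes most like Clu were Serping1 (r = 0.88), Trf (0.85) and Hpx (0.85), which encode plasma proteins made in quantity by liver. Clu is itself a gene with high expression in liver.

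The hepatocyte sum had medians of 295 CPM in Lgr5-high cystine, 392 CPM in Lgr5-high control, 408 CPM in Lgr5-low cystine and 409 CPM in Lgr5-low control libraries. All 6 markers were detected in every library, with Alb at group means of 86.9, 125, 183 and 150 CPM in that order. In Lgr5-low cystine replicate 1, the library with the highest Clu level, the sum was 672 CPM. This was below the 799 CPM of replicate 2 of the same group and above the highest values of the other groups, 523, 539 and 551 CPM. Clu also correlated with the sum of 5 stromal markers (r = 0.65, rho = 0.71, adjusted p = 0.0123 and 0.00351), whose level was 0.453 to 9.48 CPM. Its within-group deviations correlated at 0.70 with macrophage markers and at -0.73 with the library total. Within groups, shallow libraries thus tended to have the higher Clu levels. Without subtracting group means these r were 0.33 and -0.38 over the 28 libraries (adjusted permutation p = 0.257 and 0.171). The part of these cell types and of depth in the level of Clu was not tested. Msi1 ran against the hepatocyte markers (r = -0.51, rho = -0.56, adjusted p = 0.0472 and 0.0257, and r = -0.53 without the 2 farthest libraries). Paneth markers went with Tead1, Bmi1 and Msi1 (r = 0.50, 0.52 and 0.52, rho = 0.54, 0.52 and 0.55, adjusted p of r = 0.0472, 0.0405 and 0.0472), and without the 2 farthest libraries r was 0.52, 0.35 and 0.40. The other 7 relations are of Hopx or Mex3a with markers that differ between the populations, and their r within groups, after subtracting group means, was between -0.39 and 0.20. Without the libraries under 5 M counts the diet effect on Clu was -0.99 in Lgr5-high and 0.52 in Lgr5-low cells.

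**Figure D3:**
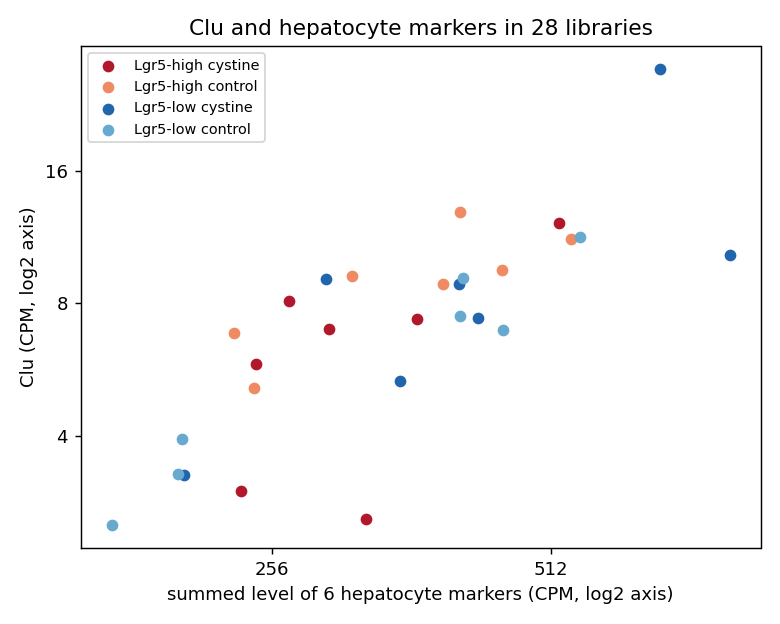
Clu level (y axis, CPM, log2 axis) against the summed level of 6 hepatocyte markers (x axis, CPM, log2 axis), 1 point per library, coloured by group. The points run together over all 4 groups (r = 0.79), and the highest Clu level, 27.3 CPM, stands at a sum of 672 CPM.

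Ly6a, also called Sca-1, is a small membrane-anchored protein gene that rises in regenerating mouse epithelium and is also known from T cells, endothelium and blood progenitors. It lies on chromosome 15 (74994877 to 74998031, minus strand). Its lowest, median and highest levels were 0.156, 1.87 and 9.58 CPM in Lgr5-high cystine and 0.183, 0.759 and 2.52 CPM in Lgr5-high control libraries. In Lgr5-low cells they were 0.346, 1.01 and 19.2 CPM on cystine and 0.151, 0.889 and 2.96 CPM on control diet. In Lgr5-high cells 3 cystine libraries lay above all control libraries, yet the lowest of all 14 was also a cystine library. Cystine over control gave 1.54 ± 0.89 log2 units in Lgr5-high cells (95% interval -0.25 to 3.34, adjusted p = 1), the largest diet effect of the 9 genes.

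In Lgr5-low cells the diet effect on Ly6a was 1.20 ± 0.88 (95% interval -0.58 to 2.99) and rested on 1 library. Without Lgr5-low cystine replicate 1, at 19.2 CPM from 67 counts, it was -0.62. Averaged over both populations, a comparison added after the data had been seen, cystine over control gave 1.37 ± 0.62 (95% interval 0.11 to 2.64, adjusted p = 1), with 0 of 9 members and 20 of all genes called (0.160%). That value was 0.45 without the same library and 0.15 without the libraries under 5 M counts. Between populations Ly6a gave -0.09 ± 0.87 on cystine diet, which became 1.71 without that library, and -0.43 ± 0.87 on control diet. The T cell markers summed to 9.12 to 172 CPM in Lgr5-high cystine and 5.58 to 69.6 CPM in Lgr5-high control libraries. The within-group deviations of Ly6a correlated at r = -0.26 with those of T cell markers and at 0.34 with those of macrophage markers. For endothelial markers r was 0.33, for B and plasma cell markers 0.38 and for the library total -0.45. The part of these cells and of depth in the Ly6a level was not tested.

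Ly6a belongs to a cluster of similar genes, and 31.9% of its 31-base words occur in other genes, most of them in Ly6c1 (21.9%). The longest coding stretch that Ly6a and Ly6c1 share in the GENCODE M21 annotation of GRCm38 has 48 bases (coding bases 337 to 384 of 405 in Ly6a-201) and is shown because a read within it fits either gene.
Ly6a and Ly6c1, shared coding stretch: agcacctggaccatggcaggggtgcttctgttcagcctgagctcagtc
The counts assigned to Ly6c1 were 2, 0, 0 and 1 in the Lgr5-high cystine, Lgr5-high control, Lgr5-low cystine and Lgr5-low control groups, where Ly6a had 97, 126, 158 and 95. Salmon divides such reads by a model, and the assignment to Ly6a depends on it. The genes most like Ly6a were Desi1 (r = 0.67), Cebpb (0.64) and Glrx5 (0.62).

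Anxa3, a calcium-dependent membrane-binding annexin of the fetal-like state, lies on chromosome 5 (96793339 to 96845966, plus strand). It measured 0.0782, 3.39 and 6.1 CPM (lowest, median, highest) in Lgr5-high cystine and 0.375, 3.9 and 9.62 CPM in Lgr5-high control libraries. In Lgr5-low cells it measured 2.61, 6.03 and 11.8 CPM on cystine and 0.643, 5.84 and 11.2 CPM on control diet. Medians were lower in Lgr5-high than in Lgr5-low cells on both diets, with overlap in each. The log2 fold change of Lgr5-high over Lgr5-low cells was -0.85 ± 0.60 on cystine diet (95% interval -2.07 to 0.38, adjusted p = 0.567) and -0.42 ± 0.60 on control diet (-1.63 to 0.78, adjusted p = 0.843). Between diets Anxa3 gave -0.18 ± 0.60 in Lgr5-high and 0.24 ± 0.59 in Lgr5-low cells. The genes most like it were Tmem30a (r = 0.68), Zzef1 (0.67) and Plec (0.63).

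Several relatives of these fetal-like genes were measured at higher levels and passed between populations on 1 diet each, in each case lower in Lgr5-high cells. Among 21 listed fetal-like and revival genes 10 were tested, and 1 was lower on each diet. Over all genes 330 (2.64%) were called on cystine, 192 of them lower, and 225 (1.80%) on control diet, 127 of them lower. Anxa2, an annexin of the cell membrane, measured 144 ± 69.3 against 320 ± 107 CPM on cystine (log2 fold change -1.15 ± 0.27, adjusted p = 0.0131), and gave -0.91 on control diet (adjusted p = 0.0665). S100a6, a calcium-binding protein gene, measured 10.8 ± 5.76 against 28.3 ± 12.9 CPM on control diet (-1.40 ± 0.38, adjusted p = 0.0414), and gave -0.83 on cystine (adjusted p = 0.276). The keratin gene Krt7 gave -0.63 on control diet (adjusted p = 0.119). The list's median was 0.09 on cystine and -0.33 on control diet, beside -0.04 and -0.01 for all genes. Of its 10 tested genes, 6 had a positive log2 fold change on cystine and 2 on control diet.

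Of 10 listed relatives of Ly6a and Anxa3, 6 were tested, with medians between -0.27 and 0.10, and 1 passed on control diet, where 1.80% of all genes did. Anxa13, an annexin of the intestinal epithelium, was lower in Lgr5-high cells on control diet (56.7 ± 25.4 against 146 ± 54.9 CPM, log2 fold change -1.36 ± 0.33, adjusted p = 0.0252). On cystine diet it gave -1.12 (adjusted p = 0.0606). Anxa4 and Anxa7 gave -0.31 (adjusted p = 0.412) and -0.37 (adjusted p = 0.692) on control diet. No gene of either list passed between diets or in the interaction. Markers of differentiated cells differed between the populations as well: the 5 enteroendocrine markers summed to 57.4 to 187 CPM in Lgr5-high against 247 to 599 CPM in Lgr5-low cystine libraries, and to 46.4 to 175 against 182 to 710 CPM on control diet. The 4 goblet markers had medians of 2190 against 6300 CPM on cystine and 2190 against 5960 CPM on control diet, and the 5 enterocyte markers 6580 against 13500 CPM and 7670 against 8490 CPM. The 4 Paneth markers had medians of 66200 against 62200 CPM on cystine and 71100 against 37800 CPM on control diet. Their part in the results for Anxa2, S100a6, Anxa13 and Krt19 was not tested.

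**Figure D4:**
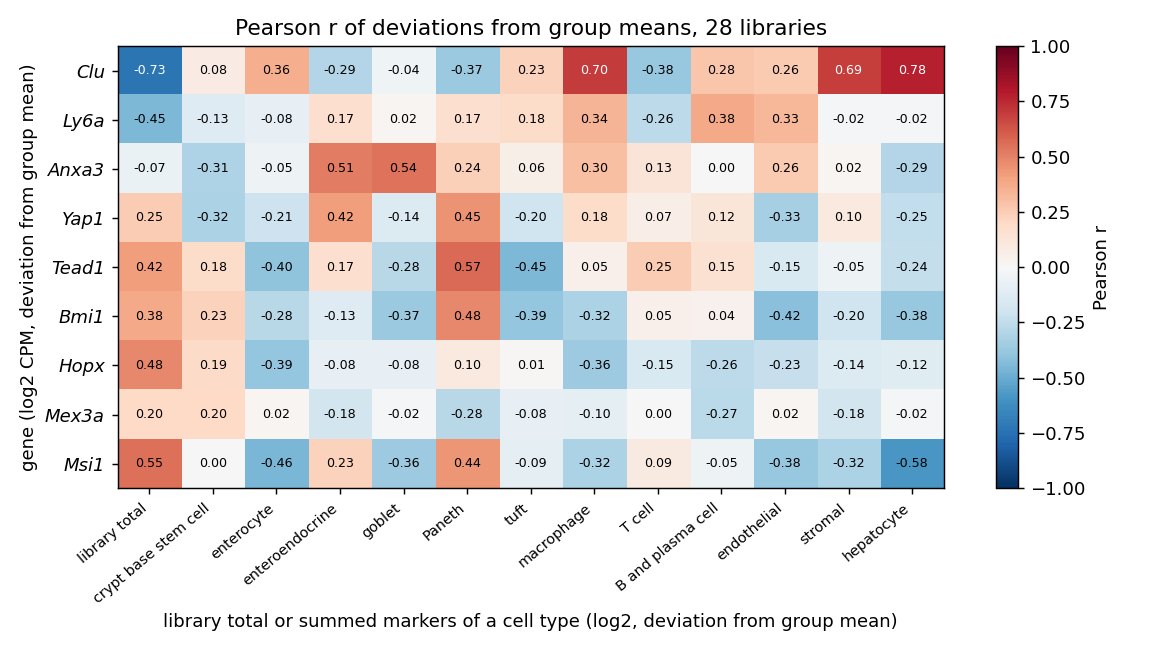
Pearson r (colour and printed value) between each of the 9 genes (y axis) and the library total or the summed markers of a cell type (x axis), as deviations of log2 values from group means over 28 libraries. The highest value is that of Clu with hepatocyte markers (0.78), and Clu with the library total is the lowest (-0.73).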

How the data were processed

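Poly(A)-selected, strand-aware libraries were made from 28 samples, per the labels' protocols. The deposited table holds whole-number estimated counts for each gene. The submitters' processing notes name Salmon 1.3.0, which divides reads among transcripts by a model, and the build mm10. The annotation and the gene-level summing were not given in the sources used here. Gene identifiers matched GENCODE M21 (GRCm38) for 51528 of 54354 genes (94.8%), and it supplied coordinates and exon lengths.

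The members and gene lists were chosen with earlier results of these data known. Differences were tested with edgeR 4.0.16 (R 4.3.3): filterByExpr, TMM factors and a robust quasi-likelihood fit with a mean for each of 4 groups, 5 contrasts, two-sided p-values adjusted by the Benjamini-Hochberg method over 12495 genes, threshold 0.05. Scripts were tested on simulated data. Named genes were all members, the 3 genes of lowest p in each list and any list gene that passed, the 3 genes of highest r with each member (mean of at least 2 CPM, log2 CPM with a prior count of 2), and Lgr5 and Olfm4. A gene that this rule names is left out as withheld. Alternatives were DESeq2 1.42.0, limma-voom (limma 3.58.1) with sample weights, RLE factors, no filter, at least 1 CPM in 7 libraries, only the compared groups, a replicate term, an Xist term (libraries divided at 50 CPM), and leaving out libraries under 5 M counts or each library in turn. Each contrast averaged over diets or populations, and the division of Hopx by Xist, were added after the data had been seen.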

Additional observations from a re-analysis of the deposited data

Results flagged for a closer look

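Among the 36 sets of 7 libraries (9 genes in 4 groups), 2 held a library far from the others by the 95% limit of Dixon's test. Chance gives about 1 in 20, which is close to the share found. Both flags fell on Lgr5-low cystine replicate 1. Clu stood at 27.3 CPM there, with a gap of 0.707 of the group's range. Ly6a stood at 19.2 CPM, with a gap of 0.921. In the same library Mex3a and Msi1 had 0 counts, the hepatocyte markers summed to 672 CPM and the macrophage markers to 86.5 CPM.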

How the results depend on the processing

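The count given here covers the members' fold changes within a diet or population and the 3 interactions of lowest p (Clu, Tead1 and Hopx). It also covers the pooled values of Hopx between populations and Ly6a between diets. The other members' interactions and pooled values are left out of it. Of the values counted, 975 kept their direction and side of the threshold, 30 changed direction, and 6 passed where the reported value did not. All 6 were Hopx between populations on control diet. There DESeq2 (1.36, adjusted p = 0.0199), limma-voom (1.33, 0.0405), only the compared groups (1.36, 0.0465), the Xist term (1.35, 0.0426), and leaving out Lgr5-low control replicate 3 (1.55, 0.026) or 4 (1.55, 0.0464) gave 1 member called instead of 0. It did not pass with RLE factors (0.0628), no filter (0.1), the CPM filter (0.0671) or without libraries under 5 M counts (1.27, 0.114). Within the libraries below and above the Xist division it was 1.20 (0.626) and 1.46 (0.0795). Leaving out 1 library gave 0 to 1 members called. Over both diets limma-voom called 2 members, Mex3a (2.09, adjusted p = 0.0112) beside Hopx, and Ly6a turned there from -0.26 to 0.33 with limma-voom, 0.45 with the replicate block and 0.39 without libraries under 5 M counts.

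Signs turned in genes near 0 or with few counts. Without libraries under 5 M counts, cystine over control became -0.10 for Mex3a, 0.03 for Anxa3 and -0.10 for Yap1 in Lgr5-high cells, and -0.12 for Mex3a, -0.56 for Ly6a and -0.12 for Anxa3 in Lgr5-low cells. Limma-voom gave -0.37 for Mex3a in Lgr5-high and -0.40 for Ly6a in Lgr5-low cells. Mex3a in Lgr5-low cells was -0.03 with DESeq2, -0.04 with RLE factors, -0.01 with no filter and -0.03 with the CPM filter. Ly6a between populations on cystine became 1.19 with limma-voom, 1.33 with the replicate block and 1.10 without libraries under 5 M counts. Leaving out 1 library gave -0.40 to 0.15 for Anxa3 and -0.05 to 0.39 for Mex3a between diets in Lgr5-high cells. In Lgr5-low cells the ranges were -0.03 to 0.41 for Hopx, -0.62 to 1.48 for Ly6a and -0.50 to 0.93 for Mex3a. For Ly6a between populations on cystine it was -0.68 to 1.71. The causes were not tested.

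Counts over all genes moved more. Between diets in Lgr5-high cells (21) they were 89 with DESeq2, 38 with limma-voom, 37 with only the compared groups, 41 with the Xist term, 0 without libraries under 5 M counts and 7 to 41 leaving out 1 library. In Lgr5-low cells (0) DESeq2 gave 4 and limma-voom 1. The interaction (0) gave 6 with limma-voom, 1 without libraries under 5 M counts and 0 to 1 leaving out 1 library. Between populations on control diet (225) they were 410 with DESeq2, 781 with limma-voom, 144 with no filter, 127 with only the compared groups, 450 with the Xist term and 124 to 456 leaving out 1 library. On cystine (330) they were 585 with DESeq2, 880 with limma-voom, 619 with the Xist term and 169 to 381 leaving out 1 library. Over both diets (1100) limma-voom gave 2337, and over both populations (20) DESeq2 gave 83, the Xist term 35, the deeper libraries 1 and leaving out 1 library 13 to 54.

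No label says that a replicate number marks a shared animal, and not every same-numbered pair deviated together at r over 0.1. Between populations r was -0.08 to 0.17 on cystine and 0.07 to 0.24 on control diet. Between diets it was -0.05 to 0.11 in Lgr5-high and -0.09 to 0.12 in Lgr5-low cells. The mean r of a library with the other numbers was -0.03 to 0.01, -0.03 to 0, -0.03 to 0.01 and -0.04 to 0.03 in that order. In the same order, 3, 4, 1 and 2 of 7 libraries correlated best with their own number. Between populations the numbers also agreed in Xist class in 7 of 7 pairs on each diet (under 50 CPM in cystine replicates 1 and 2 and control replicates 1 to 3), a hint of shared animals from the data. With a replicate block Hopx on control diet was 1.48 (adjusted p = 0.0696), and 409 genes were called there. Ly6a, Mex3a and Msi1 had the lowest median counts and the largest spread between libraries among the members.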
